A study of Homo sapiens with 6 samples.

Results

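Imprinted genes are expressed from 1 parental allele, and 10 of them were examined in UE7T-9 cells: H19, MEG3, MEST, PEG3, PEG10, DLK1, NDN, SNRPN, PLAGL1 and CDKN1C. They were chosen by name and not by their measured values, though earlier results of these data were known at the time. Of the 10, 7 were found by Ensembl identifier among the 28181 genes measured, and H19, DLK1 and NDN were not analysed here. Of the 7, 6 had an average normalized count of 1 or more and entered the test, with 23040 genes in all. PEG3 fell below that mean.

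The UE7T-9 line comes from human bone marrow, has the character of mesenchymal stem cells, and was immortalized by adding hTERT together with the E7 gene of human papillomavirus. UE7T-9 SHC4 cells carried the coding region of SHC4, an adaptor protein of receptor tyrosine kinase signaling, behind the CMV promoter of a lentiviral vector. The paper describes UE7T-9 Cont cells as carrying GFP in the same vector, whereas the labels call them Nontarget with the genotype WT. Both were selected with puromycin according to the methods, and RNA was sequenced from 3 samples of each. The series text speaks of clones of the SHC4 line, and the labels of biological replicates 1 to 3. Nothing states that these came from separate infections, so the p-values measure the spread between these samples, which may be technical. All 6 libraries share 1 donor line and its immortalizing genes.

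An imprint is a DNA methylation mark set in the egg or sperm at a control region and copied at each cell division. For genes in a domain of neighbours it keeps the allele of 1 parent silent, and which parent can differ from gene to gene. Several imprinted genes, among them MEG3, H19 and DLK1, are known to gain or lose expression when cells are kept in culture, and such states are inherited by the descendants of a cell. The comparison asks whether any of the genes was on in 1 group or library and off in another. The counts are sums over both alleles, so the allele used was not measured.

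The promoter windows of SNRPN, PLAGL1 and MEG3 are printed because SNRPN was the most uneven of the well-covered genes, PLAGL1 was the gene whose groups did not overlap, and MEG3 stands for a domain known to switch in cultured cells. The table lists 4 windows for SNRPN, 5 for PLAGL1 and 3 for MEG3, and the one printed holds the most CG dinucleotides of its gene (1 of 2 with the same number for MEG3). Each holds the 250 bases before a transcription start in the RefSeq table for GRCh38.p14, on the strand of the gene. Capitals mark TGCCGC or its reverse complement GCGGCA, the hexamer that the zinc finger protein ZFP57 binds in methylated DNA. The SNRPN window lies at chr15:24954737-24954986 on the plus strand and is shared with SNURF. The PLAGL1 window lies at chr6:144008260-144008509 on the minus strand and is shared with HYMAI. The MEG3 window lies at chr14:100825858-100826107 on the plus strand.
SNRPN: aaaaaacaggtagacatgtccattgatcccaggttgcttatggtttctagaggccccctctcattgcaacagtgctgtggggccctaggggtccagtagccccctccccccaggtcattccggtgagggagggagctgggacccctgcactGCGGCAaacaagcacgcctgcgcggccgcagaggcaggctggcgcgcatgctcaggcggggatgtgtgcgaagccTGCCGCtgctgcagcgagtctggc
PLAGL1: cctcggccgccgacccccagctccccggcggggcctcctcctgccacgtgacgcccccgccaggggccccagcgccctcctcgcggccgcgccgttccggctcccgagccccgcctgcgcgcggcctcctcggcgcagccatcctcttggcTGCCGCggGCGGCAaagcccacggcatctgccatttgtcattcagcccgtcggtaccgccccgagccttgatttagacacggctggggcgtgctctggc
MEG3: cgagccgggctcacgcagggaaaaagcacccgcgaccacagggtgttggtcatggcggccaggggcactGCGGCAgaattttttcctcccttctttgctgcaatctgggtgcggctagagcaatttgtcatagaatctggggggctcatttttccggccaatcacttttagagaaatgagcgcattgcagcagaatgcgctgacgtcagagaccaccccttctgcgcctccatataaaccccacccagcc
The SNRPN and PLAGL1 windows each held 2 copies of the hexamer, and the MEG3 window held 1. Over the 34943 promoter windows of the table, 12.7% held at least 1 copy on either strand and 1.69% held at least 2. The other SNRPN windows held 0, 0 and 1 copies, and the other PLAGL1 windows none. As the windows were picked for their CG content, which the hexamer shares, nothing is read from these shares. These letters are a description of the reference, and methylation, binding and the start used by the transcripts were not measured.

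Depth ranged from 18144993 to 27721397 recovered reads per library, and 3 reads corresponded to a normalized count between 2.50 and 3.53. SHC4 itself was at 56.5, 157 and 130 in UE7T-9 Cont, against 134870, 119166 and 155006 in UE7T-9 SHC4, so every library matched its label. All 9 mesenchymal markers, which include CD44, THY1 and VIM, were on in all 6 libraries. Of 6 blood markers 4 were analysed, with a summed count of 122 to 142 in UE7T-9 Cont, against 109 to 116 in UE7T-9 SHC4, in which CD14 (52.7 to 88.3) and CD34 (39.6 to 52.7) were on in all 6 libraries. PTPRC was at 0 to 6.82 and SPI1 at 0.832 to 2.92. The 4 endothelial markers summed to 49.2 to 96.7 over all libraries, with VWF at 34.4 to 65.3 and on in all 6, and CDH5 at 0 to 1.18. The summed count of 4 epithelial markers was 68.3 to 166 in UE7T-9 Cont, against 13.3 to 64.2 in UE7T-9 SHC4 (EPCAM at 0 to 4.92). It included KRT18, at 41.9, 37.7 and 112 in UE7T-9 Cont, against 21.1, 3.33 and 3.49 in UE7T-9 SHC4, which DESeq2 called lower (adjusted p = 0.00804) and limma did not (adjusted p = 0.158). The part of these sums in the values below was not tested. The log2 values of UE7T-9 Cont replicate 1 correlated at 0.975, 0.969 and 0.968 with UE7T-9 SHC4 replicates 1, 2 and 3. They correlated at 0.967 with UE7T-9 Cont replicate 2 and at 0.962 with UE7T-9 Cont replicate 3, lower than with any UE7T-9 SHC4 library.

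No imprinted gene was on in one group and off in the other. A gene was called off in a library with fewer than 3 reads and on at a normalized count of at least 10. MEG3, MEST, PEG10, PLAGL1 and SNRPN were on in all 6 libraries, which is 5 of the 7 genes, beside 61.7% of the genes tested. PEG3 was off in all 6. CDKN1C was on in 5 libraries and between off and on in UE7T-9 Cont replicate 3, with 4 reads. That switch, on in all libraries of 1 group and off in all of the other, was made by 0 of the 7, and 0.0304% of the genes tested had it (7 genes). None was on in 1 library and off in another of the same group, which 3.75% of the genes tested were. In bulk RNA, fewer cells that express a gene and less of its RNA per cell cannot be told apart.

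**Figure D1:**
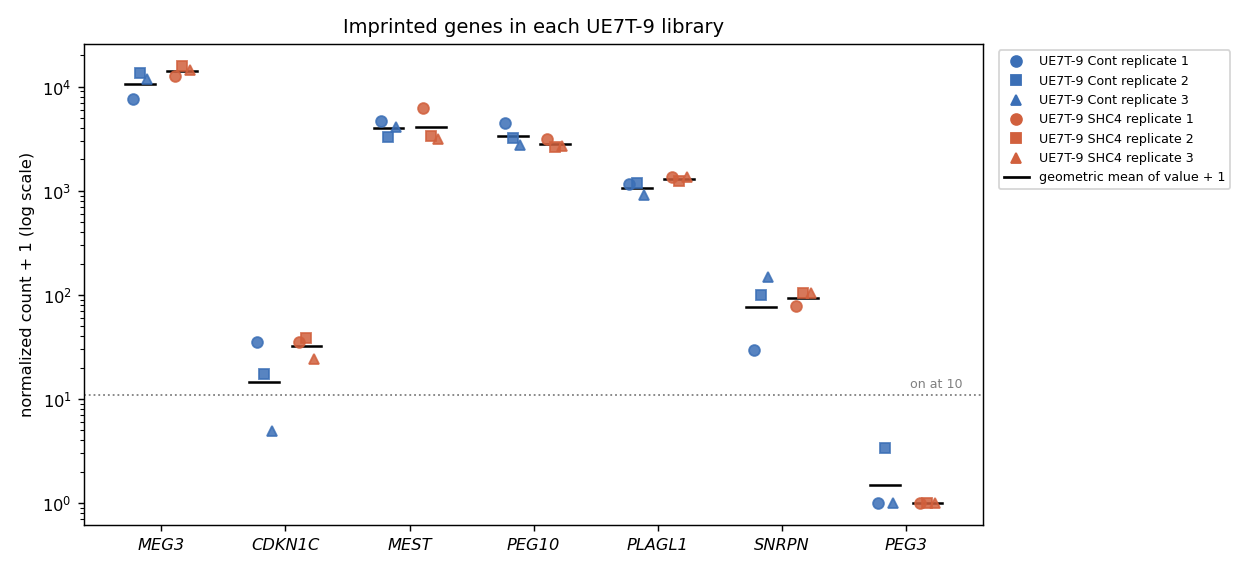
Normalized count plus 1 (log scale) of the 7 imprinted genes in each of the 6 libraries, with blue for UE7T-9 Cont, orange for UE7T-9 SHC4, marker shapes for replicates 1 to 3 and black bars for the geometric mean of each group. MEG3, MEST, PEG10, PLAGL1 and SNRPN lie above the dotted line at a count of 10 in every library, CDKN1C lies below it in UE7T-9 Cont replicate 3, and PEG3 lies near 0 throughout.

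No imprinted gene passed the test of UE7T-9 SHC4 against UE7T-9 Cont. limma on log2(normalized count + 1), with Benjamini-Hochberg adjustment over all genes tested, called a gene when the adjusted p was below 0.05 and the log2 fold change lay beyond 1 in either direction. Of the 6 genes tested, 0 were called, beside 0.0608% of all genes (0.0521% higher and 0.00868% lower in UE7T-9 SHC4). At an unadjusted p below 0.05 the count was also 0 of 6, beside 14.4% of all genes. DESeq2 on the recovered reads called 0 of the 6, beside 2.20% of all genes, and edgeR called 0, beside 0.0631%. Their median log2 fold change was 0.30, with 5 above 0 and 1 below, and the median over all genes was -0.0040.

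Of the genes expressed from the maternal allele, MEG3 and CDKN1C were analysed, and neither changed past the test. MEG3 is a long noncoding RNA of the DLK1-MEG3 domain on chromosome 14 (100779410 to 100861031, plus strand, GENCODE 29 on GRCh38). UE7T-9 Cont replicates 1 to 3 had normalized counts of 7675, 13468 and 11753. UE7T-9 SHC4 replicates 1 to 3 had 12552, 15842 and 14333. The lowest value was that of UE7T-9 Cont replicate 1, 2 of the 3 UE7T-9 SHC4 values lay above all controls, and the groups overlapped. The means were 10965 ± 2976 and 14242 ± 1647 (SD, n = 3), a ratio of 1.30. The log2 fold change was 0.41 (95% interval -0.091 to 0.91) with a limma adjusted p of 0.437. Without UE7T-9 Cont replicate 1 it was 0.17.

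CDKN1C encodes the cyclin-dependent kinase inhibitor p57 and lies in the KCNQ1-CDKN1C domain on chromosome 11 (2883213 to 2885773, minus strand). Its normalized count was 34.1, 16.5 and 3.93 in UE7T-9 Cont, from 35, 14 and 4 reads. It was 34.3, 37.5 and 23.3 in UE7T-9 SHC4, from 39, 45 and 20 reads. UE7T-9 Cont replicate 1 lay among the UE7T-9 SHC4 values, and replicates 2 and 3 lay below them. The log2 fold change was 1.15 (95% interval -0.33 to 2.62), the largest in size of the 6 and with the widest interval, and the limma adjusted p was 0.457. The log2 fold change was 0.37 without UE7T-9 Cont replicate 3 and 1.79 without UE7T-9 Cont replicate 1. Leaving out any other single library gave 1.02 to 1.35. With all 6 libraries the count tests gave smaller values than limma, with 0.80 in DESeq2 and 0.81 in edgeR.

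Of the genes expressed from the paternal allele, MEST, PEG10, PLAGL1 and SNRPN were on in every library and PEG3 in none. MEST is a mesoderm gene of the alpha/beta hydrolase family on chromosome 7 (130486171 to 130506465, plus strand). MEST was at 4725, 3256 and 4096 in UE7T-9 Cont, against 6267, 3352 and 3164 in UE7T-9 SHC4. The UE7T-9 SHC4 libraries included both the highest and the lowest value of the 6. The log2 fold change was 0.026 (95% interval -0.56 to 0.61) with a limma adjusted p of 0.976, and its sign turned to -0.078 under library size scaling.

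PEG10 derives from a retrotransposon and encodes a Gag-like protein, and it lies on chromosome 7 (94656325 to 94669695, plus strand). The libraries held 4438, 3212 and 2740 in UE7T-9 Cont, against 3152, 2637 and 2691 in UE7T-9 SHC4. UE7T-9 Cont replicate 1 was the highest, and the other 5 libraries lay between 2637 and 3212. limma gave a log2 fold change of -0.27 (95% interval -0.68 to 0.14) with an adjusted p of 0.537, and it was -0.074 without UE7T-9 Cont replicate 1. In both groups MEST and PEG10 were highest in replicate 1 and MEG3 was lowest in replicate 1. The summed count of the 9 mesenchymal markers was likewise highest in replicate 1 of each group, at 638600 (UE7T-9 Cont) and 581163 (UE7T-9 SHC4), beside 218822 to 401210 in the other 4 libraries. The sum does not stand for each marker, as COL1A2 alone averaged 164839 over all libraries. Within each group ENG was highest in replicate 1 (8048 in UE7T-9 Cont, 7119 in UE7T-9 SHC4). ALCAM was lowest there (13386 in UE7T-9 Cont, 14059 in UE7T-9 SHC4). The part of the sum in the values of the imprinted genes was not tested.

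PLAGL1 had the smallest limma p of the 6 listed genes tested. It encodes a zinc finger transcription factor that slows the cell cycle, and it lies on chromosome 6 (143940300 to 144064599, minus strand). PLAGL1 was at 1151, 1178 and 903 in UE7T-9 Cont, against 1342, 1241 and 1347 in UE7T-9 SHC4. All 3 UE7T-9 SHC4 values lay above all 3 controls, which was so for 1 of the 6 genes, beside 19.3% of all genes with groups that did not overlap in either direction. The means were 1078 ± 152 and 1310 ± 59.9 (SD, n = 3), a ratio of 1.22. limma gave a log2 fold change of 0.29 (95% interval -0.016 to 0.60) with an adjusted p of 0.371. An exact two-sided permutation test over the 6 libraries gave p = 0.1, the smallest it can give. Under library size scaling the groups overlapped.

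SNRPN encodes the spliceosomal protein SmN and lies in the Prader-Willi domain on chromosome 15 (24823637 to 24978723, plus strand). Of its several annotated starts, the 1 shared with SNURF lies in the imprinting center of that domain. SNRPN was at 28.3, 98.9 and 149 in UE7T-9 Cont, from 29, 84 and 151 reads. It was 76.5, 103 and 102 in UE7T-9 SHC4, from 87, 124 and 88 reads. UE7T-9 Cont replicate 1 was the lowest library and UE7T-9 Cont replicate 3 the highest, with the whole UE7T-9 SHC4 group between them. limma gave a log2 fold change of 0.31 (95% interval -0.85 to 1.47) with an adjusted p of 0.824, and without UE7T-9 Cont replicate 1 it turned to -0.38.

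PEG3, a zinc finger gene on chromosome 19 (56810077 to 56840728, minus strand), had no read in 5 libraries. UE7T-9 Cont replicate 2 held 2 reads, a normalized count of 2.35. Both groups were below the limit that 3 reads per library set, so no ratio was formed.

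The libraries of UE7T-9 Cont were uneven for CDKN1C and SNRPN. The highest value plus 1 was 7.12 times the lowest plus 1 for CDKN1C in UE7T-9 Cont, against 1.58 times in UE7T-9 SHC4. For SNRPN it was 5.11 times in UE7T-9 Cont, against 1.35 times in UE7T-9 SHC4. A range over 4-fold within a group was thus found in 2 of the 6 genes, beside 20.0% of all genes tested. Both were in UE7T-9 Cont, where 14.0% of all genes had such a range, against 8.91% in UE7T-9 SHC4. Without UE7T-9 Cont replicate 1, or without replicate 3, neither gene was past 4-fold. Among the 12678 genes that averaged 50 or more, which include SNRPN and not CDKN1C, 2.26% had such a range in either group. The difference in range between the groups was not tested. MEG3, MEST, PEG10 and PLAGL1 stayed between 1.09-fold and 1.98-fold within each group.

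**Figure D2:**
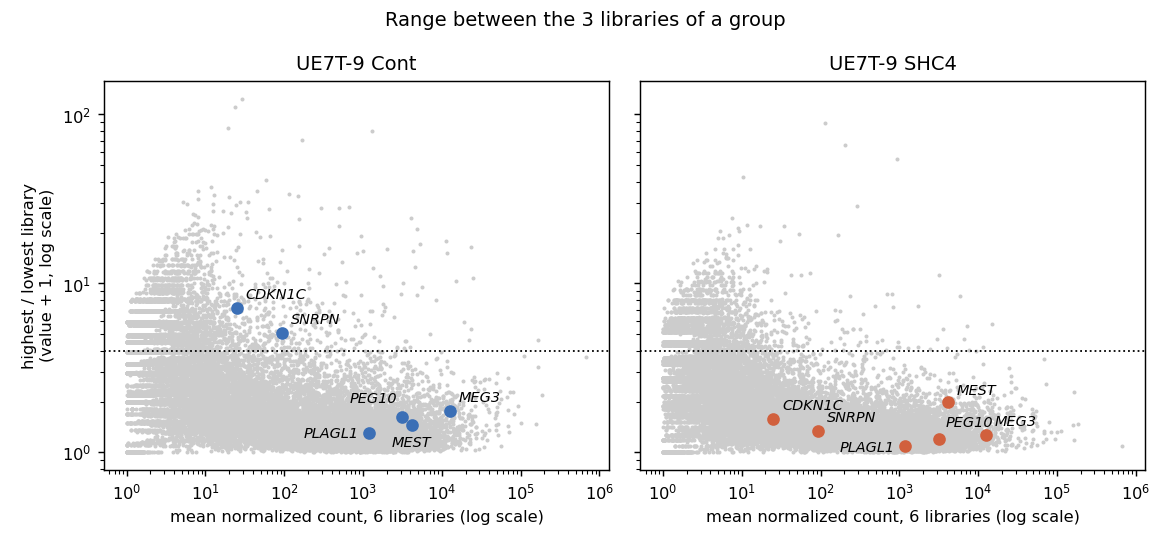
Highest library over lowest library within a group (value plus 1, log scale) against the mean normalized count over 6 libraries (log scale), for UE7T-9 Cont (left) and UE7T-9 SHC4 (right). Grey points are the 23040 genes tested, colored points the 6 imprinted genes, and the dotted line marks 4-fold. CDKN1C (7.12) and SNRPN (5.11) lie above the line in UE7T-9 Cont, and none of the 6 does in UE7T-9 SHC4.

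The genes with a library profile most like that of SNRPN were MIR222HG, the host transcript of the microRNAs miR-221 and miR-222, NAP1L3 and the pseudogene AC027309.2. Likeness was the mean absolute difference of log2(normalized count + 1), centred per gene, over the 6 libraries, among 12677 other genes that averaged 50 or more. It was 0.15 for MIR222HG, 0.16 for NAP1L3 and 0.17 for AC027309.2. MIR222HG was at 104, 266 and 386 in UE7T-9 Cont, against 165, 276 and 285 in UE7T-9 SHC4. Like SNRPN, all 3 were lowest in UE7T-9 Cont replicate 1 and highest in UE7T-9 Cont replicate 3. They were picked for their likeness to SNRPN, so nothing is read from this.

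Per kilobase of exon, the order of the mean levels was MEST, MEG3, PEG10, PLAGL1, SNRPN, CDKN1C and PEG3. The mean normalized count per kilobase over the 6 libraries was 864 for MEST, 543 for MEG3 and 470 for PEG10. It was 137 for PLAGL1, 27.2 for SNRPN, 10.1 for CDKN1C and 0.0402 for PEG3. The ranges of MEST and MEG3 overlapped, as did those of MEG3 and PEG10 and those of SNRPN and CDKN1C. Within a library, MEST was above MEG3 in 6 of 6, MEG3 above PEG10 in 5 of 6 and SNRPN above CDKN1C in 5 of 6. The exception for MEG3 and for SNRPN was UE7T-9 Cont replicate 1. PEG10 and PLAGL1, PLAGL1 and SNRPN, and CDKN1C and PEG3 did not overlap in any library. Exon length was the union over all annotated transcripts, so a gene with many long transcripts such as MEG3 has a lower value per kilobase.

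The neighbours in the same imprinted domains did not pass the limma test either. Of 36 listed neighbours, 23 were analysed and 19 tested, of which 5 had a log2 fold change above 0 and 14 below, with a median of -0.099. limma called 0. An unadjusted p below 0.05 was found in 1, beside 14.4% of all genes, and the groups did not overlap in 2 (PHLDA2 and CASD1), beside 19.3%. DESeq2 called 1, beside 2.20%. PHLDA2, a maternally expressed gene that limits placental growth, lies in the domain of CDKN1C. PHLDA2 was at 890, 1326 and 1643 in UE7T-9 Cont, against 822, 514 and 500 in UE7T-9 SHC4. The log2 fold change was -1.07 (standard error 0.25) with a limma adjusted p of 0.160, and DESeq2 called it lower with an adjusted p of 0.00846. limma called PHLDA2 when UE7T-9 Cont replicate 1 was left out. CDKN1C, from the same allele of the same domain, had a log2 fold change of the opposite sign.

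SLC22A18, a transporter gene between them, had a log2 fold change of 0.43 (limma adjusted p = 0.456). In the DLK1-MEG3 domain, the noncoding RNAs MEG8 and MEG9 were on in all libraries. MEG8 was at 147, 155 and 212 in UE7T-9 Cont, against 172, 126 and 123 in UE7T-9 SHC4. MEG9 was at 169, 146 and 129 in UE7T-9 Cont, against 243, 170 and 120 in UE7T-9 SHC4. In neither was UE7T-9 Cont replicate 1 the lowest of all libraries, as it was for MEG3, though it was the lowest control for MEG8. RTL1, a paternally expressed gene of the domain, was at 0.975, 16.5 and 12.8 in UE7T-9 Cont, from 1, 14 and 13 reads. It was at 7.91, 8.32 and 8.15 in UE7T-9 SHC4. RTL1 was thus off in UE7T-9 Cont replicate 1 and on in replicates 2 and 3, at few reads.

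SGCE, which shares the PEG10 promoter region on the opposite strand and encodes epsilon-sarcoglycan, was at 1738, 2239 and 2285 in UE7T-9 Cont. It was at 1715, 2003 and 2236 in UE7T-9 SHC4. SGCE was lowest in replicate 1 of each group, where PEG10 was highest. CASD1, a sialic acid acetyltransferase gene of that domain, had a log2 fold change of -0.19 (limma adjusted p = 0.557). Beside MEST, COPG2 and CPA4 had log2 fold changes of -0.050 and -0.19.

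In the Prader-Willi domain, the noncoding host transcript SNHG14 was at 871, 1017 and 1726 in UE7T-9 Cont, against 1351, 1636 and 1433 in UE7T-9 SHC4. As with SNRPN, its lowest library was UE7T-9 Cont replicate 1 and its highest UE7T-9 Cont replicate 3, over a range of 1.98-fold in UE7T-9 Cont. UBE3A, a ubiquitin ligase of the same domain that is imprinted in neurons, stayed between 1829 and 2168. HYMAI, the noncoding RNA inside PLAGL1, was at 1.18 to 7.87, and USP29 beside PEG3 was at 0.832 to 14.1. SNRPN overlaps SNURF and SNHG14 in the annotation, PLAGL1 overlaps HYMAI, MEST overlaps COPG2 and PEG10 overlaps SGCE. SNURF and SNHG14 lie on the same strand as SNRPN, and HYMAI on that of PLAGL1, so no strand setting separates their reads. COPG2 and SGCE lie on the opposite strand from MEST and PEG10, and the strand setting of the counting was not given in the sources used here. Reads of any of these pairs may have been split or lost.

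**Figure D3:**
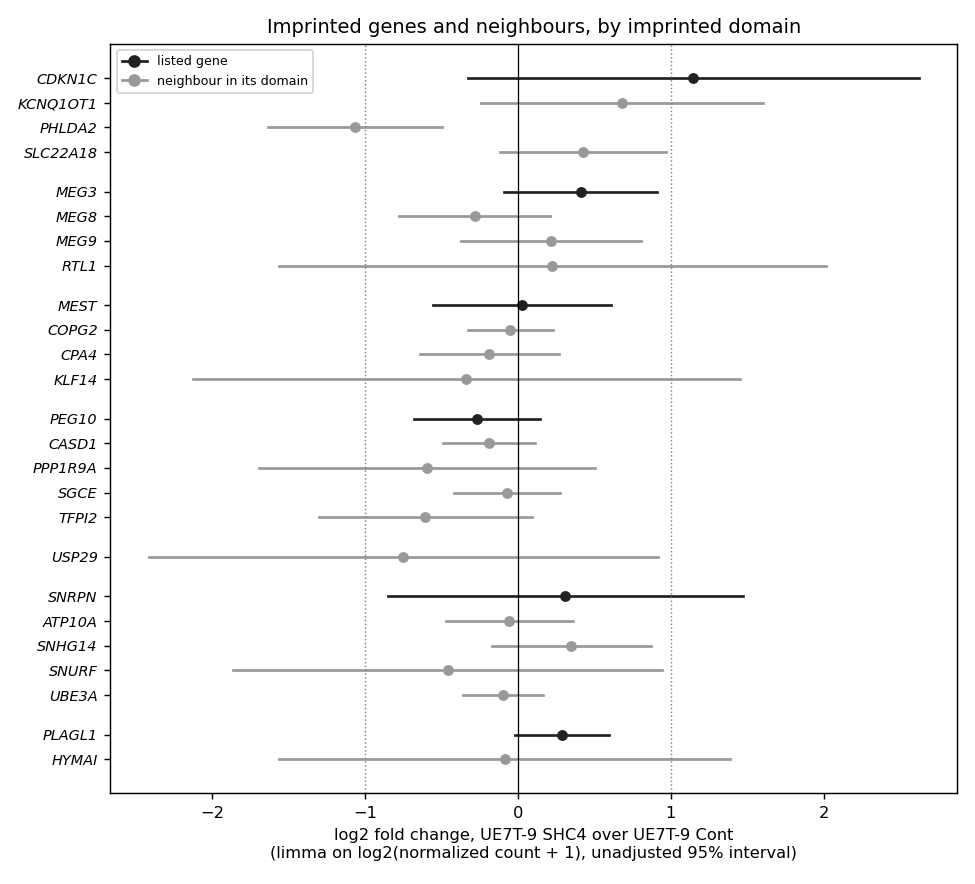
Log2 fold change of UE7T-9 SHC4 over UE7T-9 Cont with its unadjusted 95% interval from limma, for the 6 imprinted genes tested (black) and 19 neighbours (grey), grouped by domain, with dotted lines at -1 and 1. The intervals of the 6 genes all include 0, and PHLDA2 at -1.07 has an interval below 0.

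Of 22 imprinted genes of other domains, 18 were analysed and tested. Of these, 0 were called by limma, DESeq2 or edgeR, beside 0.0608%, 2.20% and 0.0631% of all genes. An unadjusted p below 0.05 was found in 6, beside 14.4% of all genes, and 5 had groups that did not overlap, beside 19.3%. The median log2 fold change was -0.059. L3MBTL1, a chromatin-binding protein gene, had the largest change in size among those with a mean of at least 50, at a log2 fold change of 0.77 ± 0.25 (standard error, limma adjusted p = 0.228). NAP1L5 was at 250, 393 and 462 in UE7T-9 Cont, against 248, 234 and 248 in UE7T-9 SHC4. IGF2R, the receptor that clears IGF2 and sorts lysosomal enzymes, was at 11947, 12811 and 14163 in UE7T-9 Cont. It was at 9442, 8598 and 9199 in UE7T-9 SHC4, below every control. Its log2 fold change was -0.51 (limma adjusted p = 0.195), and DESeq2 gave an adjusted p of 0.00957 with a fold under the threshold.

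Of 18 listed genes that set or keep imprints, 13 were analysed and tested, and these 13 were on in all 6 libraries. ZFP57 was among the 5 not analysed here. Of the 13, 0 were called by limma, DESeq2 or edgeR, beside 0.0608%, 2.20% and 0.0631% of all genes. An unadjusted p below 0.05 was found in 1, beside 14.4% of all genes. The median log2 fold change was -0.015. The largest change in size among these was in TET2, which oxidizes methylcytosine, at 515, 479 and 512 in UE7T-9 Cont, against 438, 370 and 377 in UE7T-9 SHC4 (log2 fold change -0.35, limma adjusted p = 0.285). DNMT1, the methyltransferase that copies methylation after replication, had a log2 fold change of -0.32 (limma adjusted p = 0.378). EHMT2, a histone methyltransferase, had 0.30 (limma adjusted p = 0.467).

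Over the 10 genes, their neighbours and the other imprinted genes together, 48 of 68 were analysed and 43 tested. Of these, 17 had a log2 fold change above 0 and 26 below. By the allele known to be expressed, 4 of 12 maternal genes and 9 of 19 paternal genes were above 0. No test over these lists was made. Across the 48, 34 were on in all 6 libraries, 4 were off in all 6, and 3 were on in some and off in others. These 3 were RTL1, NNAT and USP29, with at most 27 reads in a library. RTL1 and NNAT were on and off within UE7T-9 Cont, beside 3.75% of the genes tested that were so within a group. NNAT was at 3.90, 2.35 and 26.6 in UE7T-9 Cont, against 7.91, 14.2 and 6.99 in UE7T-9 SHC4. USP29 was on in UE7T-9 Cont replicate 2 and off in UE7T-9 SHC4 replicate 2.

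**Figure D4:**
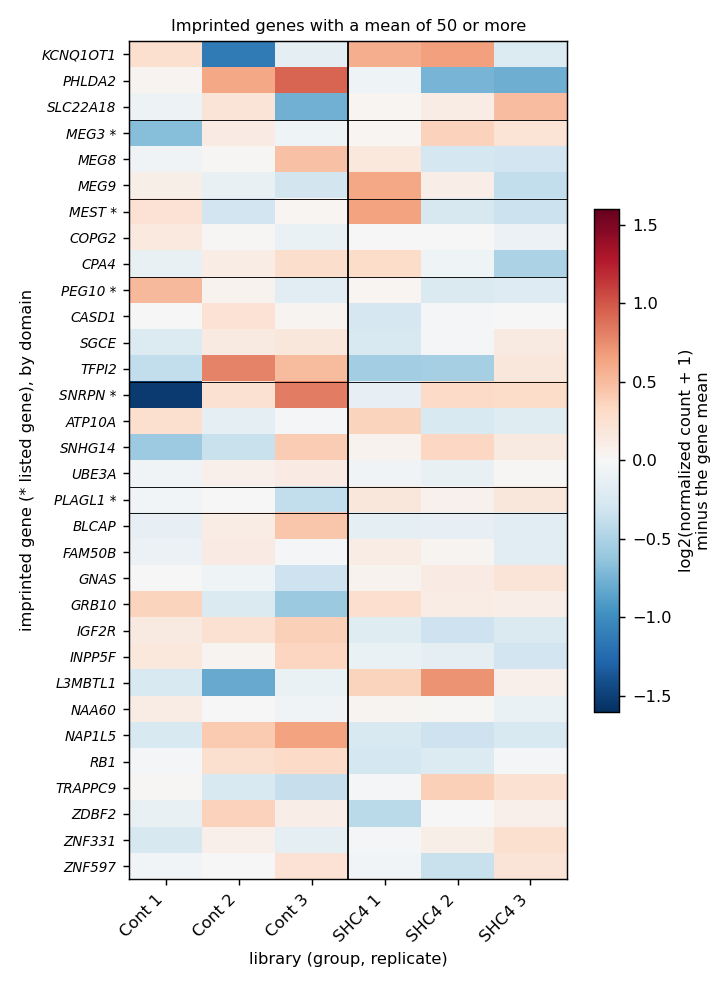
Log2(normalized count + 1) minus the mean of the gene, by library (columns, UE7T-9 Cont left of the line), for the 32 imprinted genes with a mean of at least 50 (rows, grouped by domain, with a star on the listed genes). The lowest single cell is SNRPN in UE7T-9 Cont replicate 1 at -1.53, and UE7T-9 Cont replicate 3 holds the highest value of 12 of the 32 genes.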

How the data were processed

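Each group, UE7T-9 SHC4 or UE7T-9 Cont, had 3 samples, whose RNA was isolated (RNeasy) and sequenced on a NovaSeq system. The submitters' processing notes name HISAT2 2.0.5, featureCounts 1.5.0-p3 and DESeq2. The genome build, annotation and strand setting were not given in the sources used here. The deposited values are a signal, in which each gene count was divided by the size factor of its library (normalized count). 100% of values were whole multiples of 1 read (tolerance 0.01 reads), so reads were recovered.

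limma 3.58.1 (trend) in R 4.3.3 was run on log2(normalized count + 1) for genes with a mean of at least 1 (23040 tested, 5141 not), with Benjamini-Hochberg adjustment. Fold changes are differences of mean log2(normalized count + 1), in which the added 1 shrinks the ratio of any pair of low values. Where the libraries of a group were uneven they could exceed the count-based values. Alternatives were edgeR 4.0.16, DESeq2 1.42.0, other scalings, filters and pseudocounts, a replicate block and leaving out each library. Tested on simulated counts in which 200 genes differed by a log2 change of 2, limma found 96% and made 14 false calls. The changed genes were drawn from well-covered genes only, so this share does not apply to smaller changes or lower counts.

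The genes, lists and tests were chosen with earlier results of these data known. Named were the 10 genes, SHC4, neighbours called by limma or DESeq2 and the 2 highest per domain, the 3 largest changes per other list, the 3 profiles nearest to SNRPN, and markers. Imprinted genes on in some libraries and off in others were also named, after their values were seen. Identifiers were matched to GENCODE 29 (GRCh38), and all 28181 were found. Where a promoter window was not in the RefSeq table, none is shown.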

Additional observations from a re-analysis of the deposited data

How the results depend on the processing

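The count called among the 7 imprinted genes analysed was 0 under every alternative run. The count over all genes was 14, and moved to 40 with no filter on low values, 28 under library size scaling, 24 under TMM scaling, and 355 with DESeq2. It ranged from 2 to 706 when 1 library was left out, with 706 without UE7T-9 Cont replicate 1, 63 without UE7T-9 SHC4 replicate 1, 6 without UE7T-9 Cont replicate 2, and 2 without UE7T-9 SHC4 replicate 2 or 3. The cause was not tested. The count of called neighbours went from 0 to 1 (PHLDA2) with DESeq2, and ranged from 0 to 1 with 1 library left out. Of the 7, the count with groups that did not overlap went from 1 to 0 under library size scaling. That scaling moved the median log2 fold change of all genes from -0.0040 to -0.10. With off set below 10 reads, 1 of the 7 (CDKN1C) was on in some and off in other control libraries. Among the 7, the count with a range over 4-fold was 0 at 8-fold, and 0 to 2 with 1 library left out. MEST turned to -0.078 under library size scaling and ranged from -0.29 to 0.20 with 1 library left out. SNRPN ranged from -0.38 to 0.80. The other 4 kept their sign.

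With either set of genes below, not every control correlated best with the UE7T-9 SHC4 sample of its own replicate number. Same-numbered samples correlated in their deviations at 0.148, 0.0130 and -0.00696 over 23040 genes, and UE7T-9 Cont replicate 2 correlated best with UE7T-9 SHC4 replicate 3 (0.0992). Over the 12678 genes that averaged 50 or more the values were 0.409, 0.146 and 0.149, and that cross-numbered pair again stood higher (0.517). Neither the labels nor the methods state a pairing. A replicate block brought the count over all genes to 39, and 0 imprinted genes were called.

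PEG3 and HYMAI had few reads in every library, and CDKN1C 4 to 45. With 3 libraries a group, the exact permutation test cannot go below 0.1. Read counts cover counting error only.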

Other observations

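The following ratios and windows were chosen after values of the genes had been seen, and are given as values. Within a library, MEG3 was 52.1, 86.7 and 55.6 times MEG8 in UE7T-9 Cont and 72.9, 126 and 116 times in UE7T-9 SHC4, so the groups overlapped. PEG10 was 2.55, 1.43 and 1.20 times SGCE in UE7T-9 Cont and 1.84, 1.32 and 1.20 times in UE7T-9 SHC4, with replicate 1 the highest of each group. SNHG14 was 30.8, 10.3 and 11.6 times SNRPN in UE7T-9 Cont and 17.7, 15.8 and 14.0 times in UE7T-9 SHC4. The highest of these was UE7T-9 Cont replicate 1, where SNRPN had 29 reads.

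In windows of 500 kb on either side of each gene, limma called no gene around any of the 7, beside 0.0608% of all genes. An unadjusted p below 0.05 was found in 14.4% of all genes tested, which the counts here are to be read against. Around MEG3, 0 of 18 genes tested had such a p, and 11 had a log2 fold change above 0. Around MEST it was 0 of 16. Around CDKN1C it was 3 of 15 (PHLDA2, ZNF195 and OSBPL5), and around PLAGL1 3 of 13 (FUCA2, UTRN and PEX3). Around PEG10, PEG3 and SNRPN it was 1 each, of 7, 30 and 12 genes. The gene near SNRPN was the noncoding RNA PWAR6, with a log2 fold change of 0.92 (limma adjusted p = 0.310).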
